A study of Mus musculus with 6 samples.

Results

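The link proteins of the Hapln family and the lecticans they hold on hyaluronan were described in cortex from the FAD5x model of Alzheimer's disease and from C57BL/6 Control mice. The set holds 10 of the 47728 genes in the deposited counts: the link protein genes Hapln1, Hapln2, Hapln3 and Hapln4, the lectican genes Acan, Bcan, Ncan and Vcan, and the partner genes Tnr and Ptprz1. All 10 were found by symbol and all 10 passed the filter on low counts. The genes were selected by family membership and on the known difference of Hapln2 between these same groups, so the group differences of the 10 genes are given as descriptions and support nothing.

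Each group held 3 libraries of flash frozen cortex, 1 per sample, with 17363946 to 24137936 counts in total. FAD5x mice, by general knowledge of the model, carry transgenes with mutations of familial Alzheimer's disease under the Thy1 promoter, which is active in neurons. Age and sex are not given in the sources used here. The labels do not tie the libraries to separate mice, so each p-value measures only the spread between libraries, which may be technical. The library names of FAD5x replicates 1 and 2 differ only by a suffix, so these libraries may share a mouse, which would leave 2 FAD5x animals. Levels are given as CPM, the count relative to a library total scaled by the trimmed mean of M values. Differences are log2 values, FAD5x minus Control, with the standard error (SE) of the fit, and a fold is the same difference on the linear scale.

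Some libraries stood apart before any comparison. Xist had 3 counts in Control replicate 1, and the Y-linked genes Ddx3y, Uty, Kdm5d and Eif2s3y together had 3124, while Xist ranged from 10346 to 22631 and the Y-linked sum from 0 to 9 in the other 5 libraries. By these counts Control replicate 1 was male and the other 5 libraries were female, so sex was not balanced between the groups. FAD5x replicate 1 had a summed level of 8 striatal neuron markers of 1764 CPM, against 223 to 312 CPM in the other libraries. The 11 excitatory cortical neuron markers were all detected, at a summed 4152 to 8799 CPM in the FAD5x libraries and 4981 to 7478 CPM in the Control libraries. Thy1 was higher in FAD5x (log2 1.62 ± 0.34 SE; edgeR quasi-likelihood test, adjusted p = 0.0456).

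In brain tissue, hyaluronan chains form the scaffold of the extracellular matrix. Lecticans are chondroitin sulfate proteoglycans that bind hyaluronan through one end of their core protein, and link proteins lock that bond in place. Tenascin-R, the product of Tnr, ties lecticans together at their other end. Dense forms of this matrix make the perineuronal nets around fast-spiking inhibitory neurons and the matrix at nodes of Ranvier, the gaps between myelin segments where action potentials are renewed.

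The promoters of Hapln2, Bcan and Ncan are shown because Hapln2 and Ncan were the genes of the set past the test threshold, in opposite directions, while Bcan is the neighbour of Hapln2 on chromosome 3. Each is the RefSeq window of 300 bases in build GRCm38.p6, from 250 bases before to 50 bases after the annotated start, 5′ to 3′ on the strand of the gene, which is the minus strand in all 3. Hapln2 is at chr3:88027462-88027761, Bcan at chr3:88000307-88000606 and Ncan at chr8:70120795-70121094. Capitals mark matches, on either strand, to 5 motifs. For the oligodendrocyte regulator MYRF the letters were CTGGCAC or else CTGGTAC. For SOX factors the letters were AACAAT or else ACAAAG. The E-box was spelled CAGCTG, while the TATA box was spelled TATAAA, while the GC box was spelled GGGCGG. No matches of different motifs overlapped in the windows shown.
Hapln2: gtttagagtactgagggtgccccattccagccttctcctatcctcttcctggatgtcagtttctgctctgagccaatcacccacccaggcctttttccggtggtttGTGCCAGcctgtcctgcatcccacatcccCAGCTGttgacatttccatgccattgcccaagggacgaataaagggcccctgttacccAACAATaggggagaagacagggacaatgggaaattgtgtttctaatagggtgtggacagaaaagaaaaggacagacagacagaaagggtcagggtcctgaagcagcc
Bcan: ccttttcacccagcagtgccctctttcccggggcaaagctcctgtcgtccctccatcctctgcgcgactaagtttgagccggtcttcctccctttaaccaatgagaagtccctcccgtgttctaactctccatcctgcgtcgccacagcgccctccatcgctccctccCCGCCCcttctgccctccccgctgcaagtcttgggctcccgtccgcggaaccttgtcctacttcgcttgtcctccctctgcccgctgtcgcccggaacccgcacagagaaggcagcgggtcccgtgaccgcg
Ncan: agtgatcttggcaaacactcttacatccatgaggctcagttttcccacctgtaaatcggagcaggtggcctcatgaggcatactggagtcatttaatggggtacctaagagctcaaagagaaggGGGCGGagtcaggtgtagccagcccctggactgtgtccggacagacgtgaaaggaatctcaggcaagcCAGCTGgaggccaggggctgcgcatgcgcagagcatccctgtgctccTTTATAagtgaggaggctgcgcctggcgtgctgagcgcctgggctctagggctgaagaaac
The Hapln2 window held 1 MYRF motif, 1 SOX motif and 1 E-box. The Bcan window held a single GC box, and the Ncan window held 1 E-box, 1 TATA box and 1 GC box. Of 32817 windows of the same length, 7.09% held a MYRF motif, 27.0% a SOX motif, 16.3% an E-box, 13.6% a TATA box and 35.6% a GC box. Among the 9 genes of the set with a window, the MYRF motif was also found for Acan. These matches describe the letters of the windows and were not tested against binding.

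Of the link protein genes, Hapln2 (ENSMUSG00000004894), which encodes a link protein of nodes of Ranvier made by oligodendrocytes, was higher in FAD5x. Hapln1 and Hapln3 were at lower levels, but neither passed the threshold. Hapln2 stood at 58.3, 34.4 and 53.4 CPM in the FAD5x libraries and at 6.37, 5.44 and 8.49 CPM in the Control libraries, always in the order of replicates 1, 2 and 3. The lowest FAD5x library lay far above the highest Control library. The group difference was 2.85 ± 0.25, which ranked 73 from the top among 17074 tested genes. In raw reads these levels rest on 710 to 1418 counts per FAD5x library and 97 to 152 per Control library.

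Hapln1 (ENSMUSG00000021613), the cartilage-type link protein that also stabilises perineuronal nets, stood at 22.6, 18.6 and 15.4 CPM in the FAD5x libraries and at 30.0, 47.8 and 31.6 CPM in the Control libraries. The groups did not overlap, as for 27.4% of all tested genes in either direction, and the log2 difference was -0.95 ± 0.22. Hapln3 (ENSMUSG00000030606), a link protein best known outside the brain, had few reads, 9 to 38 counts per FAD5x library and 31 to 109 per Control library. Its levels were 1.56, 0.436 and 1.56 CPM in the FAD5x libraries and 5.99, 1.74 and 2.40 CPM in the Control libraries. The log2 difference of -1.50 ± 0.60 shrank to -0.79 without Control replicate 1, the highest library for this gene.

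Hapln4 (ENSMUSG00000007594), a link protein of perineuronal nets and inhibitory synapses, was spread most widely within FAD5x. It stood at 79.7, 229 and 68.0 CPM in the FAD5x libraries and at 65.4, 72.1 and 103 CPM in the Control libraries. FAD5x replicate 2 was alone above the Control libraries, and the groups overlapped. The log2 difference of 0.65 ± 0.46 turned to -0.11 ± 0.20 without that library. In FAD5x replicate 2, Pvalb, the defining marker of fast-spiking interneurons, was also at its highest, 60.5 CPM against 11.9 to 31.6 CPM in the other 5 libraries, and the excitatory neuron markers summed to the highest value, 8799 CPM. The 10 parvalbumin interneuron markers summed to 1080, 1182 and 1219 CPM in the FAD5x libraries and 1623, 1138 and 1181 CPM in the Control libraries. That sum was not highest in FAD5x replicate 2. The geometric mean of the list was highest there, at 64.8 CPM, against 56.3 and 43.0 CPM in FAD5x replicates 1 and 3. In the Control libraries it was 40.6, 40.5 and 56.8 CPM. The part of cell composition in the Hapln4 value was not tested.

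**Figure D1:**
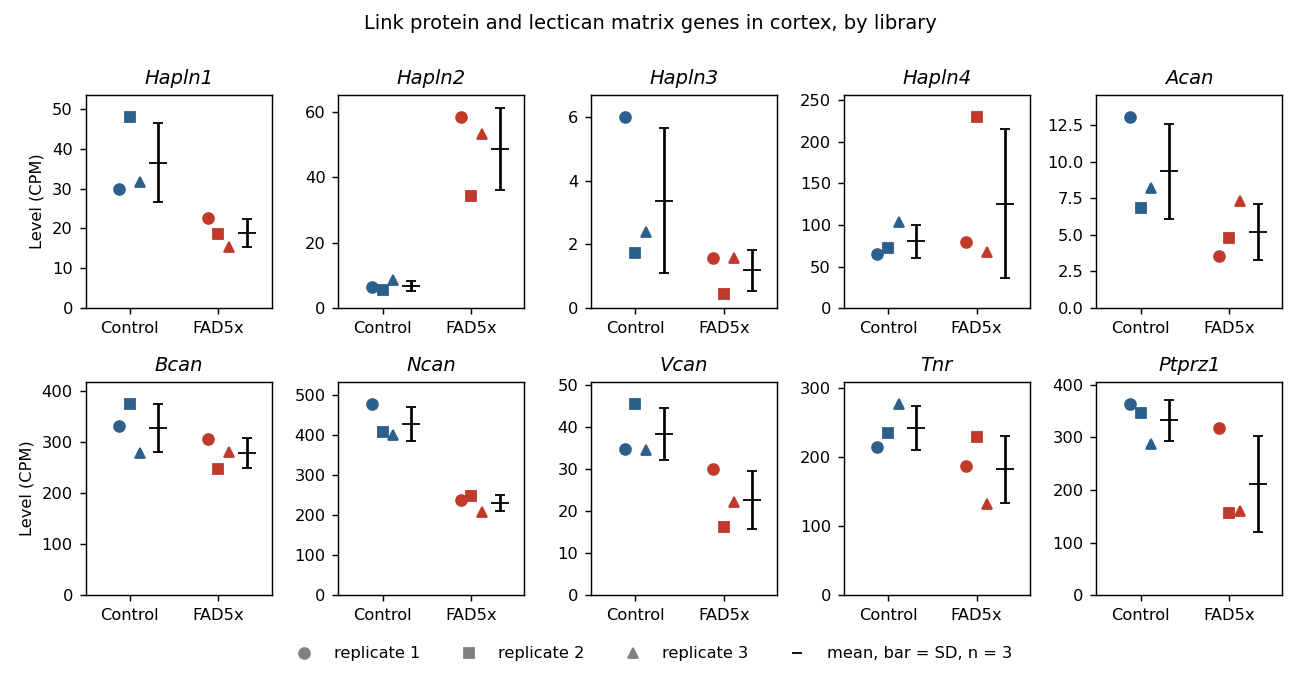
Levels of the 10 genes in CPM (vertical axis, from 0, own scale per gene) in 3 Control libraries (blue) and 3 FAD5x libraries (red), with marker shapes for replicates and a black bar for the mean and SD. Hapln2 sits at 34.4 to 58.3 CPM in FAD5x against 5.44 to 8.49 CPM in Control, Ncan at 209 to 247 against 400.4 to 477 CPM, and a single FAD5x library lifts the Hapln4 mean.

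Among the lecticans, Ncan (ENSMUSG00000002341), which encodes neurocan of the loose brain matrix, was lower in FAD5x, and the other 3 had values below 0 that did not pass the threshold. Ncan stood at 237, 247 and 209 CPM in the FAD5x libraries and at 477, 408 and 400.4 CPM in the Control libraries. The highest FAD5x library was well below the lowest Control library, and the spread within each group was the smallest of the set, with coefficients of variation of 8.68% and 9.90%. The log2 difference was -0.89 ± 0.14, a level 1.86-fold lower. That call ended without FAD5x replicate 1 or without Control replicate 1, 2 or 3, where the log2 difference was -0.91, -0.81, -0.93 and -0.94.

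Vcan (ENSMUSG00000021614), versican, the lectican of oligodendrocyte precursors and of nodes, stood at 29.9, 16.2 and 22.1 CPM in the FAD5x libraries and at 34.8, 45.4 and 34.6 CPM in the Control libraries. The groups did not overlap, though FAD5x replicate 1 came close to the Control libraries, and the log2 difference was -0.75 ± 0.23. Versican has splice forms of very different length, which counts per gene cannot separate. Acan (ENSMUSG00000030607), aggrecan, the defining lectican of perineuronal nets, was among the lowest of the set, at 3.54, 4.79 and 7.30 CPM in the FAD5x libraries and 13.0, 6.84 and 8.21 CPM in the Control libraries. Here FAD5x replicate 3 overlapped the Control range. The log2 difference of -0.85 ± 0.34 moved to -0.53 without Control replicate 1, and to -0.31 with FAD5x replicate 1 left out as well.

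Bcan (ENSMUSG00000004892), brevican, a lectican of astrocytes and oligodendrocyte precursors, differed least. It stood at 305, 246 and 280.0 CPM in the FAD5x libraries and at 330.0, 373 and 278 CPM in the Control libraries, with overlapping groups and a log2 difference of -0.24 ± 0.16. The difference was -0.14 without Control replicate 2 and -0.15 without FAD5x replicate 2.

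Both partner genes had overlapping groups. Tnr (ENSMUSG00000015829), tenascin-R, a glycoprotein of oligodendrocyte lineage cells and some neurons, stood at 187, 229 and 132 CPM in the FAD5x libraries and at 215, 236 and 277 CPM in the Control libraries, a log2 difference of -0.41 ± 0.21. That value was -0.22 without FAD5x replicate 3, the lowest library, and -0.59 to -0.30 with any other single library left out. Ptprz1 (ENSMUSG00000068748), a receptor tyrosine phosphatase whose secreted form phosphacan binds tenascins, stood at 317, 157 and 161 CPM in the FAD5x libraries and at 362, 347 and 288 CPM in the Control libraries. FAD5x replicate 1 lay inside the Control range and the other FAD5x libraries well below it. The log2 difference of Ptprz1 was -0.65 ± 0.28, and -1.07 ± 0.17, past the threshold, without FAD5x replicate 1.

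Taking the 10 genes as a list, 1 was called higher and 1 lower, and 8 were not called, where a call is a Benjamini-Hochberg adjusted p below 0.05 in the fit across all genes. Of all tested genes 3.15% were called, 1.76% higher and 1.39% lower. Since the set was chosen with this contrast known, nothing is read from its count. Groups did not overlap for 5 of the 10 genes, 4 of them lower and 1 higher, against 27.4% of all tested genes, 13.2% lower and 14.1% higher. The log2 difference was below 0 for 8 of the 10 genes and for 48.5% of all tested genes. The median was -0.70 over the 10 genes, -0.75 over the 9 genes other than Hapln2, and 0.02 over all tested genes. In single libraries, relative to the Control mean, the median of the 10 genes was -0.35, -0.85 and -0.82 in the FAD5x libraries, and -0.02, -0.05 and -0.13 in Control. FAD5x replicate 1 thus lay nearest to Control. The Hapln2 call held with each single library left out, at log2 2.69 to 3.05. With FAD5x replicate 1 and Control replicate 1 both left out, which was tried after seeing the data, the difference was 2.66 ± 0.32 and no gene of the set was called, among 34 genes called in all. With FAD5x replicates 1 and 2 summed as 1 sample, also tried after seeing the data, Hapln2 stood at 2.89 ± 0.19 and Ncan at -0.94 ± 0.16, both called, and Vcan was called lower as well.

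**Figure D2:**
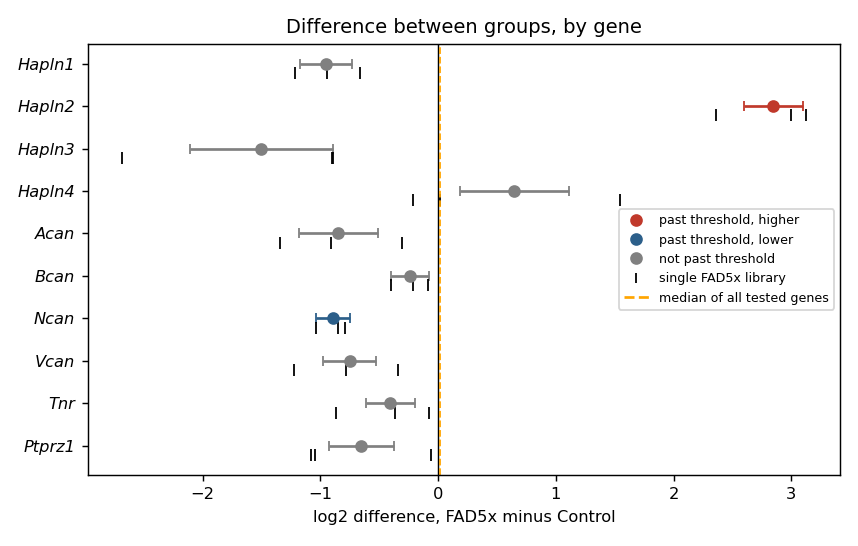
Log2 difference between FAD5x and Control for each gene (circle, with bar for SE) and the value of each FAD5x library relative to the Control mean (black ticks). Hapln2 stands at 2.85, Hapln4 at 0.65 with a wide spread of ticks, and the other 8 genes between -1.50 and -0.24, beside a median of 0.02 over all tested genes (dashed line).

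Per kilobase of merged exon length, the order of the levels in Control was Bcan (80.4 ± 11.7 CPM per kb, SD, n = 3), Ncan (59.6 ± 5.89), Ptprz1 (23.3 ± 2.77), Hapln4 (20.4 ± 5.13), Tnr (18.8 ± 2.44), Hapln1 (6.18 ± 1.67), Hapln2 (2.85 ± 0.66), Vcan (2.65 ± 0.43), Acan (1.25 ± 0.43) and Hapln3 (0.961 ± 0.65). Ptprz1, Hapln4 and Tnr lay within their spread of each other, as did Hapln2 and Vcan, and Acan and Hapln3. In FAD5x, Bcan stayed first (68.2 ± 7.26), and Hapln2 was the fourth at 20.5 ± 5.34 CPM per kb, after Ncan (32.1 ± 2.78) and Hapln4 (32.0 ± 22.9). Ptprz1 (14.8 ± 6.42) and Tnr (14.2 ± 3.78) followed within their spread of Hapln2. Hapln1 (3.19 ± 0.61), Vcan (1.57 ± 0.48), Acan (0.697 ± 0.26) and Hapln3 (0.338 ± 0.19) came last.

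These levels gave the link protein transcripts another composition in each group. Hapln2 made up 50.04%, 19.0% and 52.5% of the summed link protein level per kilobase in the FAD5x libraries, and 10.3%, 7.84% and 9.97% in Control. The share of Hapln1 was 7.78%, 4.13% and 6.07% in FAD5x and 19.4%, 27.7% and 14.9% in Control, and neither pair of groups overlapped. Hapln4 supplied most of the remainder, from 40.4% to 76.7% in FAD5x and 62.8% to 73.2% in Control. Shares of a common sum are tied, and the Hapln2 difference was known at selection. The separation of these shares is therefore a description only. The sum of the 4 link protein genes was 49.2, 76.2 and 42.9 CPM per kb in FAD5x and 26.1, 29.3 and 35.9 in Control.

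The lectican sum went the other way, at 111, 96.7 and 100.3 CPM per kb in FAD5x and 152, 152 and 128 in Control. Within it, Bcan made up 67.9%, 62.7% and 68.6% in FAD5x and 53.5%, 60.2% and 53.6% in Control. The share of Ncan was 29.8%, 35.5% and 28.9% in FAD5x and 43.7%, 37.2% and 43.6% in Control. Both shares had groups that did not overlap, with FAD5x replicate 2 and Control replicate 2 nearest to each other. Bcan and Ncan make up nearly all of this sum, so their shares mirror each other and are not separate results.

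**Figure D3:**
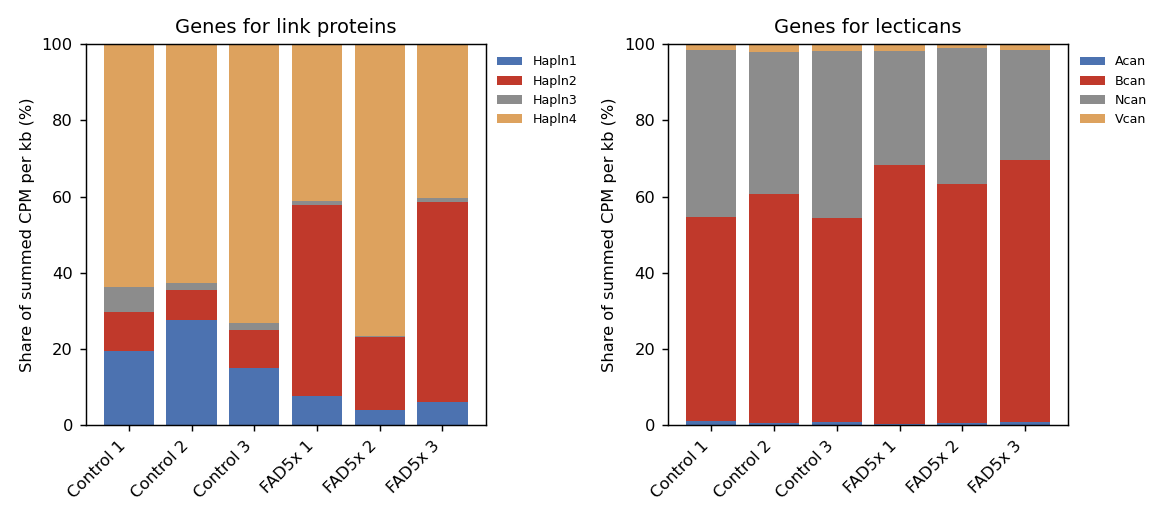
Share of each gene in the summed level per kilobase of the 4 link protein genes (left) and the 4 lectican genes (right), as stacked bars to 100% for each library. Hapln2 takes 19.0% to 52.5% of the link protein sum in FAD5x and 7.84% to 10.3% in Control, and Bcan takes 62.7% to 68.6% of the lectican sum in FAD5x and 53.5% to 60.2% in Control.

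In the mouse genome each link protein gene lies next to a lectican gene, with 0 protein-coding genes between them in GENCODE M21: Hapln1 beside Vcan on chromosome 13, Hapln2 beside Bcan on chromosome 3, Hapln3 beside Acan on chromosome 7 and Hapln4 beside Ncan on chromosome 8. Hapln2 and Bcan share a strand, and the other 3 pairs lie on opposite strands. The neighbours Hapln1 and Vcan had log2 differences of -0.95 and -0.75, and Hapln3 and Acan of -1.50 and -0.85. Hapln2 and Bcan, at 2.85 and -0.24, lay 3.08 apart. Hapln4 and Ncan, at 0.65 and -0.89, lay 1.54 apart, with Hapln4 resting on its single high library.

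Hapln2 is a transcript of oligodendrocytes, and some markers of that cell type were higher too. In bulk tissue, more cells of a type and more RNA per cell cannot be told apart. Of 18 mature oligodendrocyte markers 6 were called higher by edgeR, 8 by DESeq2 and 3 by limma-voom, with 10 higher at unadjusted p under 0.05 and 0 lower by any of these, 17 had a log2 difference above 0, and none was at 0 counts. The 6 called by edgeR were Mobp, Ermn, Myrf, Gjb1, Nkx6-2 and Trf. Their list summed to 8224, 4268 and 5495 CPM in the FAD5x libraries and 3045, 3539 and 4512 CPM in the Control libraries. The marker median was 0.75, against 2.85 for Hapln2. The geometric mean of these markers was 116, 59.0 and 76.7 CPM in the FAD5x libraries and 39.2, 45.1 and 59.5 CPM in the Control libraries. The part of cell composition in the Hapln2 value was not tested.

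Relative to that geometric mean, log2 Hapln2 was -0.996, -0.78 and -0.52 in FAD5x and -2.61, -3.04 and -2.81 in Control. The mean difference of this ratio was 2.06, with an SD of 0.24 within FAD5x and 0.22 within Control, and the groups did not overlap. The set was selected on the known Hapln2 difference, so this separation is a description only. Among the markers, Nkx6-2, an oligodendrocyte transcription factor, was nearest in size (log2 1.91 ± 0.18; edgeR quasi-likelihood test, adjusted p = 0.00143), and Myrf stood at 1.48 ± 0.27 (adjusted p = 0.0324).

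**Figure D4:**
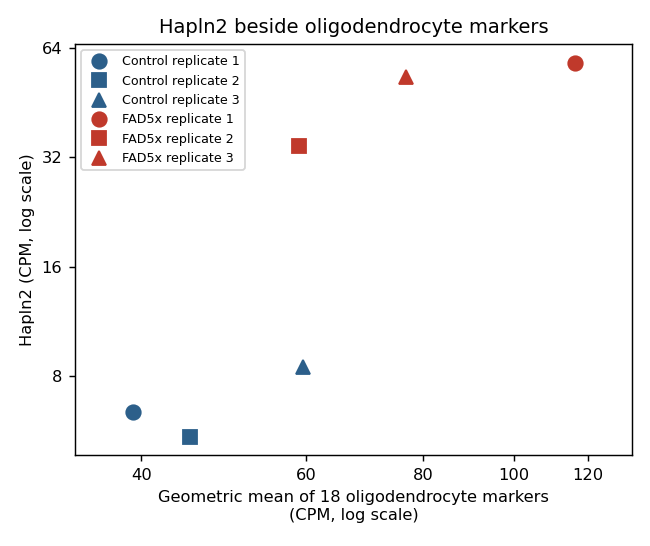
Hapln2 level against the geometric mean of 18 mature oligodendrocyte markers, both in CPM on log scales, with 1 point per library. The marker mean is 59.0 to 116 CPM in FAD5x and 39.2 to 59.5 CPM in Control. Hapln2 is at 34.4 to 58.3 CPM in FAD5x and 5.44 to 8.49 CPM in Control.

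The genes whose profile over the 6 libraries was most like that of Hapln2, by the root-mean-square difference of centred log2 levels among tested genes with a symbol of their own, were Spocd1 (0.27), Galnt6 (0.34), H2-DMb1 (0.35), Vmn2r-ps3 (0.36), Eno1b (0.36) and Serpina3n (0.36). Likeness here includes the shared group difference. Eno1b is a near copy of Eno1, so its counts are uncertain, and Vmn2r-ps3 had at most 29 counts in a library. Spocd1 had 5 to 6 counts per Control library, and H2-DMb1 had 7 to 9. Galnt6, a glycosyltransferase of mucin-type chains, stood at 31.0, 17.5 and 22.3 CPM in the FAD5x libraries and 2.97, 4.21 and 6.42 CPM in the Control libraries. Serpina3n, a protease inhibitor of reactive astrocytes, stood at 74.7, 27.9 and 51.0 CPM in the FAD5x libraries and 10.7, 7.68 and 8.26 CPM in the Control libraries. In both, as in Hapln2, FAD5x replicate 2 was the lowest of the FAD5x libraries. Both were picked for a profile like that of Hapln2, so this shared order is a description only.

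Several genes of the set are also expressed by oligodendrocyte precursors and astrocytes. Of 12 precursor markers 0 were called higher and 1 lower by edgeR, Gpr17, a receptor of committed precursors, at log2 -1.71 ± 0.25. DESeq2 called 0 higher and 2 lower, and limma-voom 0 higher and 1 lower. At unadjusted p under 0.05, 1 of these markers was higher and 4 were lower. Their summed level was 558, 395 and 397 CPM in the FAD5x libraries and 519, 612 and 521 CPM in the Control libraries, and none was at 0 counts. Within FAD5x, the precursor sum was highest in replicate 1, as were the sums of mature oligodendrocyte, astrocyte, microglia and striatal neuron markers. Of the set, Hapln1, Hapln2, Bcan, Vcan and Ptprz1 were also highest there. Hapln3, Hapln4, Acan, Ncan and Tnr were highest in another FAD5x library. Of 11 astrocyte markers 0 were called (edgeR; there were 2 higher and 0 lower at unadjusted p under 0.05, 1 higher by DESeq2 and 0 by limma-voom), and their sums were 4521 to 7355 CPM in the FAD5x libraries and 5055 to 6950 CPM in the Control libraries. The part of these cell types in the values of the set was not tested.

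The rest of the matrix pathway was tested in the same fit over 7 lists that hold none of the 10 genes. Of 132 such genes, each counted once, 126 were tested, 1 was called higher and 6 lower, or 5.56% against the 3.15% of all tested genes. The lists share some genes and were chosen with earlier results of these data known, so nothing is read from such shares. Their median log2 difference was -0.16, with 74 of 126 below 0. Without FAD5x replicate 1 and Control replicate 1 together, 0 of these genes were called by edgeR, and Tnc had an adjusted p of 0.135.

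For hyaluronan, edgeR called 2 of 14 tested genes lower, both linked to its breakdown: Cemip, a hyaluronan-binding protein, and Cemip2, a related cell surface protein. Of the 14 genes 8 were below 0 and 6 above. DESeq2 called 3 lower and limma-voom 2, and 4 were lower at unadjusted p under 0.05, with 0 higher by any of these. Cemip stood at 12.1, 16.8 and 15.02 CPM in the FAD5x libraries and 34.7, 32.8 and 34.7 CPM in the Control libraries (log2 -1.22 ± 0.15; edgeR quasi-likelihood test, adjusted p = 0.00726). Cemip2 stood at 9.26, 11.95 and 11.6 CPM in the FAD5x libraries and 27.1, 22.3 and 19.6 CPM in the Control libraries (log2 -1.07 ± 0.18, adjusted p = 0.0207). The Cemip call held with each single library left out. The Cemip2 call ended without FAD5x replicate 1 (adjusted p = 0.0619) or Control replicates 1 and 2 in turn (0.100 and 0.0959).

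None of 21 tested genes for chondroitin sulfate chain synthesis was called (edgeR; there were 2 higher and 2 lower at unadjusted p under 0.05, and 0 by DESeq2 and limma-voom), and the list median was -0.12. At the highest levels among them, Fam20b, a kinase of the linkage sugars, had a log2 difference of 0.09 ± 0.13, and B3gat3, which completes the linkage, of 0.42 ± 0.16. Of 10 lysosomal genes that degrade chondroitin sulfate and related chains 0 were called (edgeR; there were 3 higher and 0 lower at unadjusted p under 0.05, 3 higher by DESeq2 and 0 by limma-voom), with a median of 0.33 and 9 of 10 above 0. Ids, a lysosomal sulfatase with the highest level there, had a log2 difference of 0.09 ± 0.23.

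Of 20 proteases and inhibitors that act on lecticans and other matrix, edgeR called 1 lower, Mmp15, a membrane-type metalloproteinase. It stood at 17.8, 18.1 and 13.3 CPM in the FAD5x libraries and 37.0, 32.5 and 29.6 CPM in the Control libraries (log2 -1.01 ± 0.16; edgeR quasi-likelihood test, adjusted p = 0.0198). Its call ended without FAD5x replicate 1 (adjusted p = 0.0521) or Control replicates 1 and 2 in turn (0.0956 and 0.0966). Mmp15 is known as an activator of other metalloproteinases rather than as a main lectican protease. Adamts4, the aggrecanase of oligodendrocytes, named after its values were seen, did not pass the threshold, at 39.1, 21.1 and 22.8 CPM in the FAD5x libraries and 19.0, 20.1 and 24.1 CPM in the Control libraries. Its log2 difference was 0.39 ± 0.24, while Adamts15, also not called and named late, was at -1.34 ± 0.42. In this list 7 genes were above 0 and 13 below. DESeq2 called 1 higher and 5 lower, and limma-voom 0 higher and 1 lower. At unadjusted p under 0.05, 1 was higher and 6 were lower.

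Receptors and ligands of tenascins and proteoglycans had 0 of 17 genes called (edgeR; there were 0 higher and 7 lower at unadjusted p under 0.05, 4 lower by DESeq2 and 0 by limma-voom) and a median of -0.29. Groups did not overlap for 10 of the 17, all lower, against 13.2% of all tested genes. Ptn, pleiotrophin, a growth factor that binds Ptprz1, stood at 288, 261 and 334 CPM in the FAD5x libraries and 584, 437 and 386 CPM in the Control libraries (log2 -0.67 ± 0.19; edgeR quasi-likelihood test, adjusted p = 0.0965). Ptprs, a receptor for chondroitin sulfate chains, had a log2 difference of -0.18 ± 0.13.

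Among 31 other matrix proteins 3 were called lower and 1 higher by edgeR, with 20 below 0 and 11 above. DESeq2 called 8 lower and 1 higher, and limma-voom 3 lower and 1 higher. At unadjusted p under 0.05, 12 were lower and 1 was higher. Tnc, tenascin-C, the relative of tenascin-R in developing and injured tissue, was 6.74-fold lower, at 1.85, 1.02 and 2.09 CPM in the FAD5x libraries and 13.1, 11.7 and 8.76 CPM in the Control libraries (log2 -2.75 ± 0.31; edgeR quasi-likelihood test, adjusted p = 0.00456). Reln, reelin, a matrix protein of layer 1 neurons and interneurons, stood at 68.8, 57.4 and 103 CPM in the FAD5x libraries and 224, 162 and 154 CPM in the Control libraries (log2 -1.24 ± 0.24, adjusted p = 0.0365). Fn1, fibronectin, stood at 38.3, 58.2 and 44.6 CPM in the FAD5x libraries and 128, 103 and 76.6 CPM in the Control libraries (log2 -1.12 ± 0.22, adjusted p = 0.0362).

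The proteoglycan core protein gene Srgn, of immune cell granules, rose from 4.62, 4.99 and 3.85 CPM in the Control libraries to 8.48, 9.44 and 9.28 CPM in the FAD5x libraries (log2 1.01 ± 0.20; edgeR quasi-likelihood test, adjusted p = 0.0358). The Tnc call held with each single library left out. The Reln call ended without FAD5x replicate 1 (adjusted p = 0.0999) or Control replicates 1, 2 and 3 in turn (0.134, 0.105 and 0.0829), with library totals only (0.0687), and with FAD5x replicates 1 and 2 summed (0.0548). Fn1 lost its call without FAD5x replicates 1 and 3 (0.0959 and 0.0617) or Control replicates 1 and 2 in turn (0.133 and 0.123). Srgn lost it in turn without FAD5x replicates 1 and 3 (0.0753 and 0.0640) and Control replicates 1, 2 and 3 (0.139, 0.106 and 0.125), and with library totals only (0.0542).

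Meningeal fibroblasts express Fn1 and other matrix genes. Of 8 markers of these cells 1 was called lower by edgeR, the collagen gene Col3a1. All 8 had a log2 difference below 0, with a median of -1.56, and none was at 0 counts. DESeq2 called 5 lower and limma-voom 1, and 6 were lower at unadjusted p under 0.05, with 0 higher by any of these. Of these markers Dcn and Lum are also among the 31 other matrix proteins, so the lists are not independent. Their summed level was 52.8, 26.7 and 111 CPM in the FAD5x libraries and 219, 444 and 152 CPM in the Control libraries. The 10 microglia markers summed to 936, 436 and 593 CPM in the FAD5x libraries and 277, 429 and 284 CPM in the Control libraries. By edgeR 1 was called higher, the complement gene C1qa, and 10 were above 0. DESeq2 called 4 higher and limma-voom 1, and 8 were higher at unadjusted p under 0.05, with 0 lower by any of these. The part of these cells in the values of Fn1, Tnc and Srgn was not tested.

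Of 16 genes of the node of Ranvier and its flanking paranodes, where Hapln2 protein is found, 0 were called (edgeR; there were 1 higher and 4 lower at unadjusted p under 0.05, 1 higher and 2 lower by DESeq2 and 0 by limma-voom). The list median was -0.19. Ank3, the ankyrin that anchors nodal sodium channels, had a log2 difference of -0.32 ± 0.17.

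**Figure D5:**
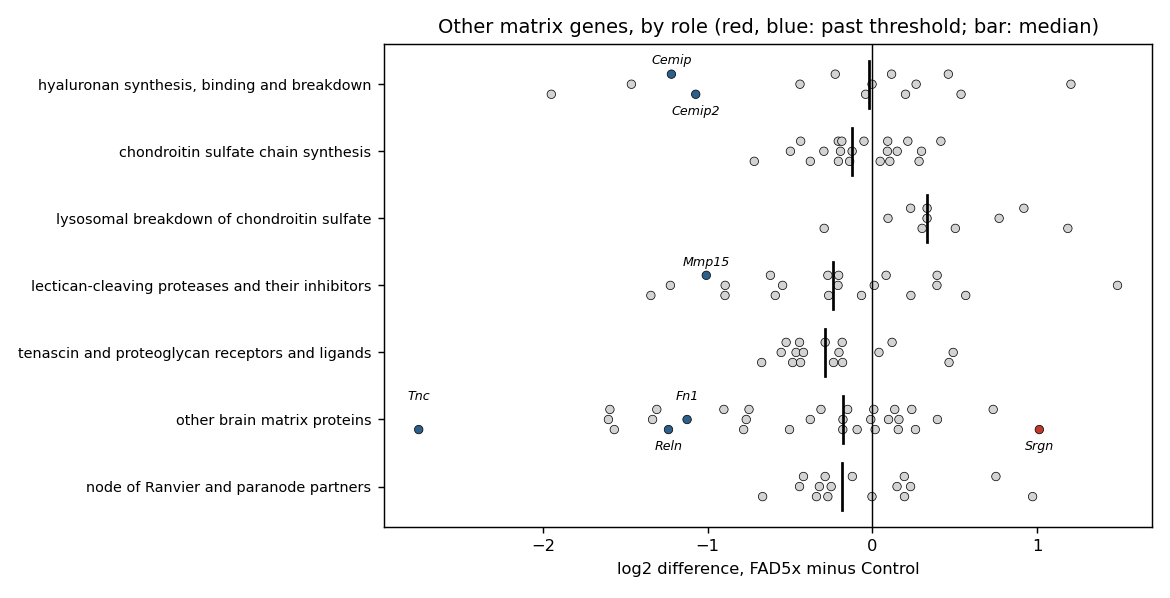
Log2 differences of the tested genes in the 7 other matrix lists, with 1 point per gene, a black bar for the list median, and blue or red points for genes called lower or higher. The called genes are Cemip, Cemip2, Mmp15, Tnc, Reln and Fn1 on the lower side and Srgn on the higher side, and list medians lie between -0.29 and 0.33.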

How the data were processed

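Cortex RNA of 3 FAD5x and 3 Control samples was sequenced. The authors deposited raw counts per gene. The submitters' processing notes name build GRCm39 and, without roles, STAR 2.7.11b, featureCounts, cutadapt, limma and edgeR 3.38.4. Strandedness and the treatment of multi-mapping reads are not given in the sources used here. Of 47729 lines, 1 with a non-numeric entry was dropped. Libraries were matched by the column names in the labels and groups by the treatment label. Symbols and lengths came from GENCODE M21, built on an earlier assembly, which matched 47309 identifiers.

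The fit across genes used edgeR 4.0.16 under R 4.3.3 (quasi-likelihood F-test with robust prior, filterByExpr, trimmed mean of M values, intercept and group, two-sided), and Benjamini-Hochberg adjusted p below 0.05 over 17074 genes was called. Biological variation between libraries had a coefficient of 23.3%, and 99.8% to 99.9% of counts fell in tested genes. The steps were tested on simulated data. No libraries of a group agreed within sampling noise (chi-square over degrees of freedom of 19.8 to 63.5), which does not show that they came from separate animals.

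The genes of the set and all lists were chosen with earlier results of these data known. Named genes are all 10 genes of the set, up to 4 called genes of smallest p in each matrix list, or the 2 most abundant where a list has no call, and the 6 genes most like Hapln2; some genes that this rule names are not reported here. Alternatives covered limma-voom (limma 3.58.1), DESeq2 1.42.0, scaling, filters, a replicate block, protein-coding genes and each library left out. Leaving out both replicate 1 libraries, and summing FAD5x replicates 1 and 2, were added after seeing the data. Transcripts of other genes that match at 95% identity over 100 bases were found for Tnr only, an antisense transcript with 0 counts. Gene models that overlap a gene of the set had at most 68 counts in all libraries together (antisense to Vcan, which had 3548). Log2 levels used a pseudocount of 0.5 counts.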

Additional observations from a re-analysis of the deposited data

How the results depend on the processing

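Over 15 alternatives the median log2 difference of the 10 genes ran from -0.78 to -0.56, and every gene of the set kept its direction except Hapln4 without FAD5x replicate 2. The number of genes called across the table was 1485 with DESeq2, 1063 with no filter on low counts, 72 with the replicate block and 34 without FAD5x replicate 1 and Control replicate 1, and 81 to 989 with single libraries left out. For the 10 genes the count was 4 with DESeq2 and with no filter, where Hapln1 and Vcan joined Hapln2 and Ncan, 1 with the replicate block, 0 with those libraries both left out, and 1 to 2 with single libraries left out. For the other matrix genes it was 27, 18, 1 and 0 in the same order of settings, and 2 to 13 with single libraries left out. With FAD5x replicates 1 and 2 summed as 1 sample, 12 of these matrix genes were called, 3 of the 10 genes and 715 in all. Fewer samples enter the fits that leave libraries out. Calls across the table still rose from 537 in the main fit to 989 without FAD5x replicate 2 and 597 without FAD5x replicate 3. The cause of these shifts was not tested. With coding length Hapln2 kept its rank in FAD5x, 4, and with the longest transcript it was 5. Hapln2 relative to the sum of oligodendrocyte markers differed by 2.17. Ids ran from -0.070 to 0.27 with single libraries left out, below 0 without FAD5x replicate 1 (-0.033) or Control replicate 1, and stood at -0.19 without both and -0.0092 with FAD5x replicates 1 and 2 summed. Same-numbered replicates did not deviate together (correlations of -0.04, -0.09 and -0.28), and no sample correlated best with its own number. With so few libraries this cannot exclude pairing, by these numbers or in another way. The main fit assumed no pairing. Low counts limit Hapln3, with 9 counts in its lowest library, and the filter of 10 counts in every sample removed it.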
